A study of Homo sapiens with 6 samples.

Results

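Natural antisense RNAs were examined in A549, a human lung cancer cell line, with a knockout of YTHDF1 and in the wild-type line. Total RNA was sequenced from 3 YTHDF1 knockout and 3 wild-type libraries, which the labels call biological replicates, and both groups were grown in the same medium with fetal bovine serum and antibiotics. No drug or infection is named for either group. The labels do not give the edited part of YTHDF1, the number of clones or whether the replicates were separate cultures, so the p-values measure the spread among these libraries, which may be technical. The RNAs were taken by name: every gene in the deposited counts whose symbol ends in -AS and a digit, apart from PRR11-AS1, whose mean over the 6 libraries reached 1 CPM (the count brought to a common library size). This gave 335 genes of 1828 with such a name and of 60617 genes in all. Name and mean level chose them, and the rule does not use the comparison of knockout with wild type. Earlier results of these data were known when the rule was set. Just inside the minimum lay ACTA2-AS1, GNG12-AS1 and GPC1-AS1, with means of 1.00, 1.01 and 1.01 CPM. Just outside it lay CD44-AS1, DHRS4-AS1 and TTC23-AS1, with means of 0.992, 0.981 and 0.974 CPM.

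An antisense RNA is transcribed from the strand opposite to another gene. Some start within or beyond that gene and run back through it, and others start beside its promoter and run away from it, from the same open chromatin. Many are spliced and polyadenylated, do not code for protein and are kept at low levels by the nuclear exosome and its adaptor complexes, and individual ones are known to recruit chromatin modifiers, bind microRNAs or form RNA-DNA hybrids (R-loops) at their own locus. YTHDF1 is a reader protein that binds N6-methyladenosine in RNA, and the title of the series links it to R-loops and to innate immunity.

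Of the 335 antisense RNAs, GENCODE release 29 on GRCh38 annotates 258 as antisense, 37 as processed transcripts, 28 as intergenic long noncoding RNAs, 4 as bidirectional promoter RNAs, 3 as protein coding and 5 as transcribed pseudogenes. The name is therefore broader than the label of an antisense noncoding RNA. A partner gene, meaning the gene in the name, was found for 331 of them. The 4 without one, HOXA-AS2, HOXB-AS3, HOXB-AS4 and HOXD-AS2, are named after a whole HOX cluster. The 331 had 325 different partners, since HIF1A, TFAP2A, PTOV1, TSPEAR, DLGAP1 and BCAN have 2 antisense RNAs each. In 138 pairs the starts lay on opposite strands within 2000 bases of each other and the genes ran apart, from separate or overlapping 5′ ends (divergent). In 187 pairs the bodies overlapped on opposite strands in another way (overlapping), and in 6 pairs neither held (separate). FAM131B-AS2 alone lay on the same strand as its partner.

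Divergent pairs can share 1 stretch of DNA as promoter, and 2 of them are shown because their RNAs moved differently, together in the SOX21 pair and apart in the SCAMP1 pair. The windows run from 250 bases before to 50 bases after the annotated start (RefSeq, GRCh38.p14) and are printed 5′ to 3′ on the strand of the named gene. Capitals mark the bases that lie in both windows of a pair, 175 bases for SCAMP1-AS1 and SCAMP1 and 270 bases for SOX21-AS1 and SOX21. The window of SCAMP1-AS1 is chr5:78360492-78360791 on the minus strand, that of SCAMP1 chr5:78360367-78360666 on the plus strand, and that of SOX21-AS1 chr13:94712466-94712765 on the plus strand.
SCAMP1-AS1: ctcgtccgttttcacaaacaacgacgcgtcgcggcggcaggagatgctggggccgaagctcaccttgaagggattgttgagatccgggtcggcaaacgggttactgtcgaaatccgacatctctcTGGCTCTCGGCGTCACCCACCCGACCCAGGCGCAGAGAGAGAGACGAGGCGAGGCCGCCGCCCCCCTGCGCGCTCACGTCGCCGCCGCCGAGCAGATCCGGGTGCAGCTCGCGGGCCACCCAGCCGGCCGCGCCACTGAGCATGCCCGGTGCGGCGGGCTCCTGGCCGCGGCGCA
SCAMP1: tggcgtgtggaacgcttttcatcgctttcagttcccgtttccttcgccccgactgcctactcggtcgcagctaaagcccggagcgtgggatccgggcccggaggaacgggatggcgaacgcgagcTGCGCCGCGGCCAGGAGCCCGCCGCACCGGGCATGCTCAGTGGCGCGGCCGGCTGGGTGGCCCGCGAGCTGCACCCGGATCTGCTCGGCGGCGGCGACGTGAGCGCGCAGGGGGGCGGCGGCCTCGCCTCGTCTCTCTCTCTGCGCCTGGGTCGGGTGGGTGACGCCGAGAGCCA
SOX21-AS1: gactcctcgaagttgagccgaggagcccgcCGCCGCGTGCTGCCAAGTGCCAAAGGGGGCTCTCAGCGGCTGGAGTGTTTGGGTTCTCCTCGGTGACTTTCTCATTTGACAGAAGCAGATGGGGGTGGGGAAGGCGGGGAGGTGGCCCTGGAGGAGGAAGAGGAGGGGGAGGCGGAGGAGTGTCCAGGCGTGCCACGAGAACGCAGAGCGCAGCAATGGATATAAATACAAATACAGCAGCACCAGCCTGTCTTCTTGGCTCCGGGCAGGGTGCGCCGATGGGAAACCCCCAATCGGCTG
These windows were 69.7%, 72.3% and 62.3% G or C. The fourth window belongs to IRF1, whose antisense RNA rose most, and lies at chr5:132490724-132491023 on the minus strand. Its capitals mark a match to TTCNNNGAA, the core of the site that STAT proteins bind.
IRF1: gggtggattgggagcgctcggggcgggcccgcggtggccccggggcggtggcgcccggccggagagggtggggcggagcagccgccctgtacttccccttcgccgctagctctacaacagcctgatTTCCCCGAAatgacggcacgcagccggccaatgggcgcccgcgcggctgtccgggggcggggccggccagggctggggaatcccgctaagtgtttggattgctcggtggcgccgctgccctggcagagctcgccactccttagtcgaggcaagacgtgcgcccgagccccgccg
IRF1-AS1 itself has no entry in the promoter table.

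In the 250 promoter windows matched to members of the 335, the median G and C content was 64.3%, against 58.3% in all 27305 windows of the table, and the median ratio of observed to expected CpG was 0.785, against 0.580. The core of the interferon-stimulated response element, GAAA-NN-GAAA, searched on both strands, was found in 10 of 250 antisense RNA windows (4.0%) and in 3.65% of all windows. It was found in 4 of 62 windows of antisense RNAs that were higher in the knockout, in 0 of 44 of those that were lower and in 6 of 144 of those not called. TTCNNNGAA, which reads the same on both strands, was found in 4.80% of the antisense RNA windows and in 7.88% of all windows. By call it was found in 2 of 62 windows of those that were higher, in 3 of 44 of those that were lower and in 7 of 144 of those not called. These matches describe the letters of the windows and were not tested.

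The libraries held 32037107, 40675628 and 40186533 counts in the knockout and 38225388, 27238817 and 40460782 in the wild type. At this depth 3 counts in a library were worth 0.0738 to 0.110 CPM. YTHDF1 itself had 48.6, 48.6 and 47.1 CPM in the knockout libraries, against 97.9, 104 and 96.3 CPM in the wild-type libraries, a log2 fold change of -1.05 (SE 0.0526, adjusted p = 7.81e-18, edgeR's quasi-likelihood test), so its RNA was lowered and not lost. Markers of A549 and lung epithelium summed to 13491 to 14021 CPM in the knockout and 13734 to 14546 CPM in the wild type, and 16 of 18 markers of blood, endothelial, stromal and other cells averaged below 1 CPM, 3 of them with 0 counts. Mitochondrial mRNA took 3.72% to 3.98% of counts in the knockout libraries and 5.76% to 5.92% in the wild-type libraries; its part in the results below was not tested. In bulk RNA, fewer cells of a kind and less RNA per cell cannot be told apart.

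The kit marks strand, but the sources used here do not say whether the counting used it. The counts bear on this. Genes of at least 200 exonic bases that lie inside a gene of at least 10 CPM on the other strand were compared by how much of their exons faces exons of a gene on the other strand. Where all of it did, 296 of 299 genes (99.0%) had 0 counts in every library, whereas 631 of 2452 genes (25.7%) did where none of it did. Where above 0 to 50% of it did, 72 of 835 genes (8.62%) had 0 counts. Above 50% but short of all, 69 of 241 genes (28.6%) had 0 counts. Reads over exons on both strands thus seem to have been left out of these counts, which counting by strand would not do. The strand of the other reads cannot be known from the counts, so an exon may hold reads of either strand. Of the 335 antisense RNAs, 269 have exonic bases opposite exons of another gene, 242 opposite their own partner, and 312 have exonic bases inside the body of a gene on the other strand, where that gene's unspliced RNA could also be counted. The remaining 23 have none, and their values are given separately.

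The antisense RNAs as a group were a small and steady part of the RNA. They summed to 2256 to 2336 CPM in the knockout libraries and 2242 to 2325 CPM in the wild-type libraries, between 0.222% and 0.237% of the counts in every library. All 335 passed edgeR's filter on low counts. In the knockout 87 were higher, 56 were lower and 192 were not called at an adjusted p of 0.05 (edgeR's quasi-likelihood test, Benjamini-Hochberg adjustment over 18505 genes). Thus 42.7% were called, while the background over all genes tested was 53.5%, with 27.2% higher and 26.3% lower. Most antisense RNAs are low, and among genes with a mean between 1 CPM and the upper quartile of the antisense RNAs the background was 42.9%. That range leaves out the 84 antisense RNAs of highest level, so shares of the 335 and of the range come from unlike sets. Of those 84, 60.7% were called. The median log2 fold change of the 335 was 0.12, against 0.00 over all genes tested, and their quartiles were -0.32 and 0.47. Changes of at least 1 on the log2 scale were called for 28 that were higher (8.36%) and 8 that were lower (2.39%). The background was 7.95% and 4.44% over all genes tested, and 11.7% and 6.09% over the genes in that range of level. Neither share of the antisense RNAs exceeded that of the genes in that range. Groups did not overlap for 166 of the 335, or 49.6%, against a background of 58.9% over all genes tested and 49.5% in that range of level.

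A mean over all 6 libraries lets in RNAs that reach the minimum through 1 group. The knockout mean was below 1 CPM for 13 of them and the wild-type mean for 19. Among the 303 with at least 1 CPM in both group means, 76 were higher and 51 lower, with a median of 0.11. Split into 4 equal ranks of level, from low to high, the share called was 22.6% in the lowest, 41% in the second, 46.4% in the third and 60.7% in the highest. Over all genes in the same 4 ranges of level the shares were 33.1%, 38.7%, 50.4% and 68.7%. The share called was thus lower among the antisense RNAs in all but the second range. Levels in the highest range were unlike, with a median of 11.0 CPM among the antisense RNAs and 33.7 CPM among all genes.

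**Figure D1:**
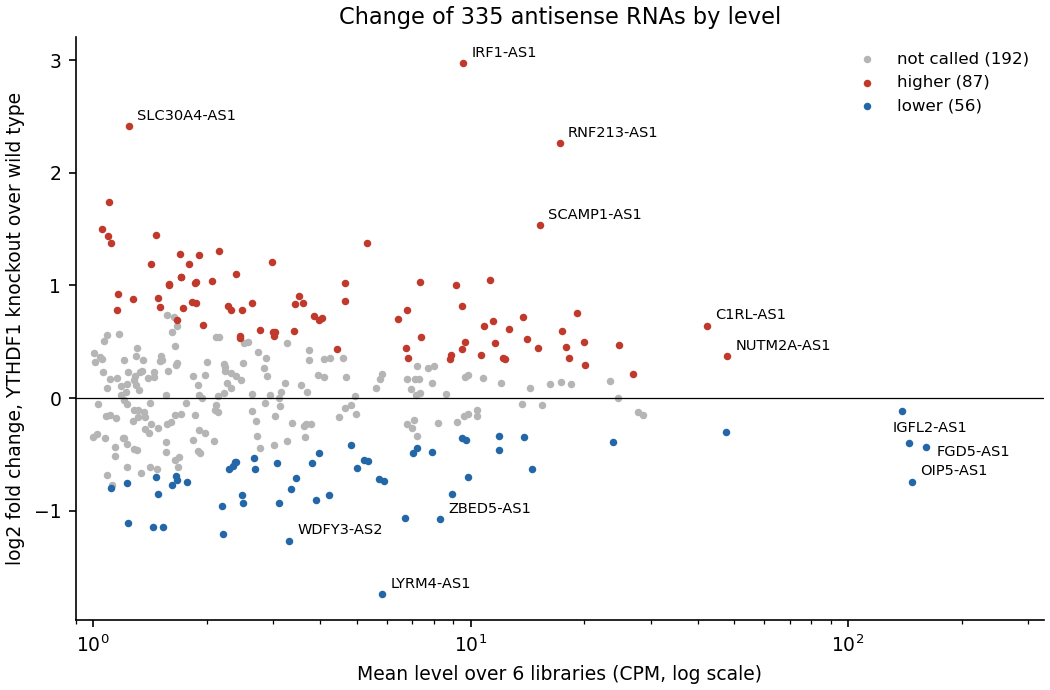
Each point is 1 of the 335 antisense RNAs, with its mean level over the 6 libraries in CPM on a log axis and its log2 fold change, YTHDF1 knockout over wild type, on the other axis; red marks the 87 called higher, blue the 56 called lower and grey the 192 not called. The 3 rises beyond 2 are IRF1-AS1, SLC30A4-AS1 and RNF213-AS1, and the 3 most abundant RNAs, FGD5-AS1, OIP5-AS1 and IGFL2-AS1, all lie below 0.

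The largest rise was that of IRF1-AS1 (ENSG00000197536, chr5:132410636-132488702, plus strand), which runs through IRF1, the interferon regulatory factor that switches on many interferon-induced genes. IRF1-AS1 had 16.1, 15.5 and 18.8 CPM in the knockout libraries, against 2.53, 2.0 and 1.87 CPM in the wild-type libraries. Every knockout library lay above every wild-type library, and the log2 fold change was 2.97 (SE 0.139, adjusted p = 1.08e-18, edgeR). IRF1 had 107, 107 and 105 CPM in the knockout libraries, against 13.4, 14.5 and 16.7 CPM in the wild-type libraries, a log2 fold change of 2.83 (SE 0.0672). The change of the antisense RNA minus that of the partner was 0.15 (SE 0.204, adjusted p = 0.62, limma on per-library log2 differences), so no difference between them was detected. Per exonic base, there were 12.7 antisense counts for every 100 of IRF1 in the knockout and 11.5 in the wild type. Of the exonic bases of IRF1-AS1, 17.6% face exons of IRF1 and 25.8% lie inside its body. No other antisense RNA among the 335 has a partner on the list of 95 interferon-stimulated genes, of which 94 were tested and all 94 were higher, at a median log2 fold change of 4.51.

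RNF213-AS1 rose with RNF213, a large ubiquitin ligase that acts against intracellular microbes. The antisense RNA had 26.5, 28.5 and 30.1 CPM in the knockout libraries, against 5.61, 5.45 and 6.54 CPM in the wild-type libraries. RNF213 had 2750, 2827 and 2895 CPM in the knockout libraries, against 810, 777 and 831 CPM in the wild-type libraries. Both pairs of groups stood clear of each other. The log2 fold change was 2.27 (SE 0.0992) for RNF213-AS1 and 1.81 (SE 0.0382) for RNF213, and the difference of 0.46 (SE 0.12, adjusted p = 0.00133, limma) passed the threshold. Per exonic base the antisense RNA stood at 7.20 for every 100 of RNF213 in the knockout and 5.22 in the wild type. Since 94.0% of its exonic bases lie inside the body of RNF213, unspliced RNF213 RNA cannot be told apart from it.

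SOX21-AS1 and SOX21 offer a pair with no shared exonic base, since the gene bodies lie 317 bases apart. SOX21 is a transcription factor of the SOX family. SOX21-AS1 had 1.83, 1.44 and 1.74 CPM in the knockout libraries, against 0.264, 0.927 and 0.374 CPM in the wild-type libraries. SOX21 had 1.89, 1.62 and 2.01 CPM in the knockout libraries, against 0.422, 0.519 and 0.649 CPM in the wild-type libraries. Both were low in every wild-type library, and the log2 fold changes were 1.74 (SE 0.389, adjusted p = 0.00029, edgeR) and 1.78 (SE 0.335, adjusted p = 3.03e-05). The difference between them in limma was 0.15 with an SE of 0.525, although the 2 edgeR changes stand in the reverse order. A difference of that size could not be seen at this depth. Per exonic base the antisense RNA stood at 76.8 for every 100 of SOX21 in the knockout and 83.2 in the wild type.

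Rises without the partner were seen at SCAMP1 and SLC30A4. SCAMP1-AS1 starts 76 bases from SCAMP1, a membrane protein of secretory vesicles, and shares no base with the body of a gene on the other strand. It had 21.5, 21.6 and 24.8 CPM in the knockout libraries, against 7.98, 8.04 and 7.44 CPM in the wild-type libraries, a log2 fold change of 1.53 (SE 0.0985, adjusted p = 5.14e-15, edgeR). SCAMP1 had 116, 129 and 123 CPM in the knockout libraries, against 116, 115 and 115 CPM in the wild-type libraries, a log2 fold change of 0.09 (SE 0.0473, adjusted p = 0.106). It is called higher, still at a small size, when library totals alone are used for scaling (0.12) or without knockout replicate 1 (0.13). The difference between the 2 changes was 1.44 (SE 0.117, adjusted p = 1.14e-16, limma), and per exonic base the antisense RNA stood at 52.5 for every 100 of SCAMP1 in the knockout and 19.4 in the wild type. SLC30A4-AS1 had 1.95, 1.81 and 2.53 CPM in the knockout libraries, against 0.870, 0.0741 and 0.175 CPM in the wild-type libraries. SLC30A4, a zinc transporter, had 13.5, 12.5 and 12.9 CPM in the knockout libraries, against 12.9, 13.6 and 14.4 CPM in the wild-type libraries, which overlap. The antisense RNA rose by 2.42 (SE 0.436, adjusted p = 1.71e-05, edgeR) and SLC30A4 gave -0.08 (SE 0.0981, adjusted p = 0.548); the difference was 3.05 (SE 0.499, adjusted p = 6.47e-07, limma). Of the exonic bases of SLC30A4-AS1, 9.26% overlap another gene on its own strand.

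**Figure D2:**
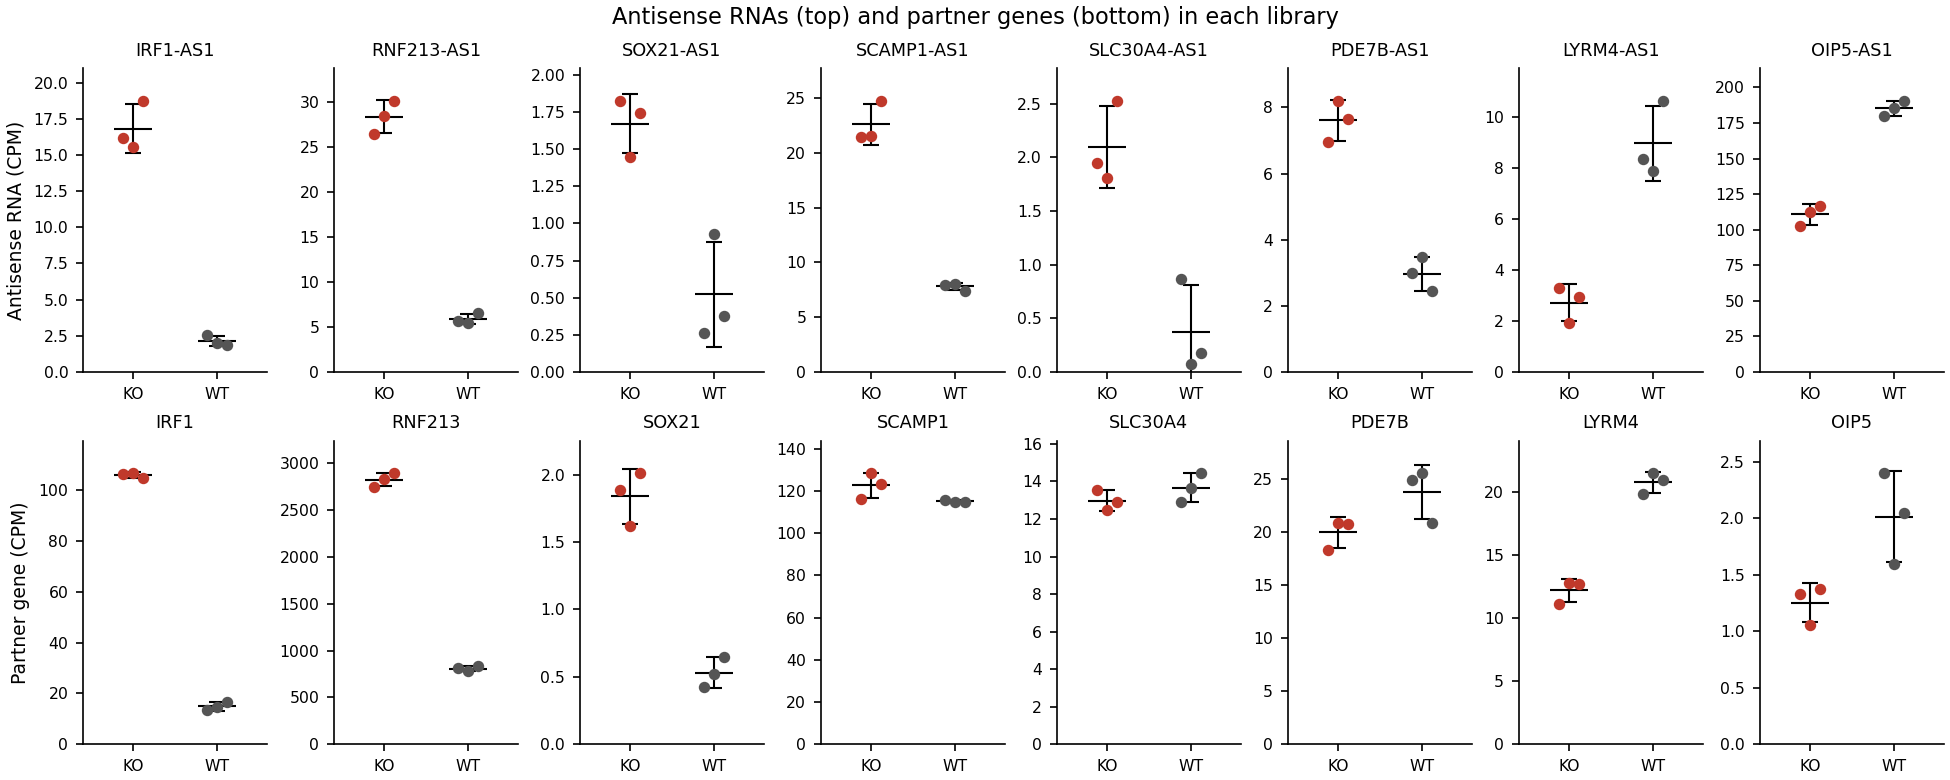
Levels in CPM of 8 antisense RNAs (top row) and their partner genes (bottom row) in each library, with YTHDF1 knockout (KO, red) left of wild type (WT, grey); points are libraries, the horizontal line is the mean and the whiskers are 1 SD over 3 libraries, and every axis starts at 0. The antisense RNA and its partner stand apart between the groups in the same direction for IRF1, RNF213, SOX21, LYRM4 and OIP5, whereas SCAMP1 and SLC30A4 are near level and PDE7B is lower in the knockout.

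The other 7 of the 12 largest rises lay between 1.28 and 1.5 on the log2 scale. WWP1-AS1, divergent from the ubiquitin ligase gene WWP1, rose by 1.5 (SE 0.357), with 1.55, 1.47 and 1.67 CPM in the knockout libraries against 0.791, 0.445 and 0.399 CPM in the wild-type libraries, while WWP1 gave 0.07 and was not called. ZNF529-AS1 rose by 1.45 beside the zinc finger gene ZNF529 at 0.74. Of the exonic bases of ZNF529-AS1, 100% lie inside the body of a gene on the other strand. TMEM92-AS1, whose body ends 92 bases from that of TMEM92, rose by 1.44 beside a partner at 1.27. PDE7B-AS1 had 6.96, 8.20 and 7.66 CPM in the knockout libraries, against 2.98, 3.48 and 2.45 CPM in the wild-type libraries. It rose by 1.37 (SE 0.16, adjusted p = 7.15e-09, edgeR), whereas PDE7B, a phosphodiesterase that breaks down cyclic AMP, gave -0.25 (adjusted p = 0.0161), a call lost without knockout replicate 1 (adjusted p = 0.0948) or without wild-type replicate 1 or 2 (adjusted p = 0.0811 and 0.0789). The difference between the 2 was 1.63 (SE 0.187, adjusted p = 4.16e-11, limma), and 96.2% of the exonic bases of PDE7B-AS1 lie inside such a body. SLC44A3-AS1 rose by 1.37, PPP1R26-AS1 by 1.31 and RBPMS-AS1 by 1.28, beside partners that rose by 0.63, 0.34 and 0.30. Of the 12, SLC30A4-AS1, SOX21-AS1, WWP1-AS1, ZNF529-AS1, TMEM92-AS1, SLC44A3-AS1 and RBPMS-AS1 had a wild-type mean below 1 CPM, so they met the minimum through the knockout libraries. The call of SLC44A3 was lost without wild-type replicate 1 (adjusted p = 0.0552).

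Falls of at least 1 on the log2 scale were called for 8 antisense RNAs. LYRM4-AS1 had 3.31, 1.91 and 2.95 CPM in the knockout libraries, against 8.38, 7.90 and 10.7 CPM in the wild-type libraries; it fell by 1.74 (SE 0.173, adjusted p = 2.35e-10, edgeR). Its partner LYRM4, which helps to assemble iron-sulfur clusters in mitochondria, had 11.1, 12.8 and 12.7 CPM in the knockout libraries, against 19.9, 21.5 and 21.0 CPM in the wild-type libraries; it fell by 0.76 (SE 0.0915). The gene bodies lie 59144 bases apart, so the pair shares no base, although 63.4% of the exonic bases of LYRM4-AS1 lie inside another gene on the other strand. The antisense RNA fell further, by 1.03 more than LYRM4 (SE 0.206, adjusted p = 3.18e-05, limma), which was not called with unweighted differences (adjusted p = 0.0529).

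Of the other 7 falls, 5 were in divergent RNAs, and in most the partner moved less. WDFY3-AS2 fell by 1.27 (SE 0.197), with 1.70, 2.03 and 2.09 CPM in the knockout libraries against 4.80, 5.19 and 4.12 CPM in the wild-type libraries, while WDFY3, an adaptor for autophagy of protein aggregates, gave 0.14, a call lost without knockout replicate 2 or wild-type replicate 1 or 3 (adjusted p = 0.158, 0.0954 and 0.0539). ZBED5-AS1 had 6.09, 4.77 and 5.23 CPM in the knockout libraries, against 9.93, 11.5 and 12.3 CPM in the wild-type libraries; it fell by 1.07 (SE 0.131), beside ZBED5 at -0.08 with no call. ZBTB11-AS1 fell by 1.15 and SPACA6-AS1 by 1.20, beside partners at -0.10 and -0.11 with no call. ATP2B1-AS1 fell by 1.14 beside ATP2B1, a calcium pump of the plasma membrane, which fell by 0.49. KIF25-AS1 fell by 1.10, a call lost without knockout replicate 3 (adjusted p = 0.0643). ZBTB11-AS1, ATP2B1-AS1 and KIF25-AS1 had a knockout mean below 1 CPM and met the minimum through the wild-type libraries. VPS9D1-AS1 moved against its partner, with 3.93, 4.38 and 4.71 CPM in the knockout libraries against 9.67, 9.49 and 8.18 CPM in the wild-type libraries. It fell by 1.06 (SE 0.139), VPS9D1 rose by 0.46 (SE 0.0822), and the difference was -1.51 (SE 0.167, adjusted p = 1.21e-11, limma). Of the exonic bases of VPS9D1-AS1, 100% lie inside the body of a gene on the other strand.

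Among the 8 most abundant antisense RNAs 5 fell, 2 rose and 1 was not called. OIP5-AS1, known as a long noncoding RNA that binds the RNA-binding protein HuR and microRNAs, had 103, 113 and 117 CPM in the knockout libraries, against 180, 185 and 191 CPM in the wild-type libraries; it fell by 0.74 (SE 0.0484, adjusted p = 7.93e-15, edgeR). Its partner OIP5, which helps to load the centromeric histone, averaged 1.25 ± 0.174 CPM in the knockout and 2.01 ± 0.403 CPM in the wild type (SD, n = 3 each). OIP5 gave -0.69 (adjusted p = 0.0347), a call lost without knockout replicate 2 or wild-type replicate 1 or 3 (adjusted p = 0.123, 0.157 and 0.0724). Per exonic base there were 862 antisense counts for every 100 of OIP5 in the knockout and 898 in the wild type, so the antisense RNA stood above its partner in both groups. FGD5-AS1 had 131, 140 and 141 CPM in the knockout libraries, against 183, 187 and 187 CPM in the wild-type libraries; it fell by 0.44 (SE 0.0445). FGD5, known from endothelial cells, stood at or below 0.295 CPM in every library and was not tested. IGFL2-AS1 had 130, 132 and 116 CPM in the knockout libraries, against 174, 157 and 165 CPM in the wild-type libraries; it fell by 0.40 (SE 0.0508), while IGFL2, which encodes a small secreted protein, rose by 0.71 (SE 0.148). PSMA3-AS1 fell by 0.30 (SE 0.0587) beside the proteasome subunit gene PSMA3 at 0.00 (SE 0.05). GABPB1-AS1 gave -0.12 (adjusted p = 0.0409) with overlapping groups, a call lost in 4 of the 6 fits that leave out a library (adjusted p up to 0.261) and with scaling by library size alone (adjusted p = 0.117), and GABPB1, a subunit of the transcription factor GABP, rose by 0.28. NUTM2A-AS1 rose by 0.38 (SE 0.0621), with 53.3, 52.3 and 56.3 CPM in the knockout libraries against 40.2, 39.8 and 44.7 CPM in the wild-type libraries. C1RL-AS1 rose by 0.64 (SE 0.0706), with 48.7, 52.6 and 53.2 CPM in the knockout libraries against 36.8, 29.3 and 32.5 CPM in the wild-type libraries, beside the complement-related protease gene C1RL at 0.96. TP73-AS1 averaged 27.2 ± 1.52 CPM in the knockout and 30.2 ± 0.556 CPM in the wild type (SD, n = 3 each) and was not called (adjusted p = 0.0819).

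The 325 partners are mostly protein-coding genes at higher levels. Of the 310 that were tested, 109 were higher and 95 lower, or 65.8% called, at a median log2 fold change of 0.05. The background was 53.5% over all genes tested and 63% over those with a mean of at least 1 CPM, a minimum that was not applied to the partners. The median SE of the log2 fold change was 0.0684 for partners in pairs and 0.224 for their antisense RNAs. A further 15 partners, among them A2M, MATN1, KCNJ5 and CDKN2B, were too low to test, so 16 antisense RNAs had no tested partner. CDKN2B-AS1, also called ANRIL and known for its link to Polycomb silencing of the INK4 locus, averaged 7.52 ± 0.389 CPM in the knockout and 6.69 ± 0.477 CPM in the wild type (SD, n = 3 each), with no call (log2 fold change 0.17, adjusted p = 0.301). CDKN2B, which encodes an inhibitor of cyclin-dependent kinases, had 0 counts in every library. DLGAP1-AS1 and DLGAP1-AS2 both rose, by 0.68 and 0.59, beside a DLGAP1 that was not tested. Of the 4 RNAs named after HOX clusters, HOXD-AS2 rose by 0.84 and HOXB-AS4 by 0.60, while HOXB-AS3 gave 0.29 and HOXA-AS2 -0.21 with no call.

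The change was set pair by pair for the 315 pairs in which both genes were tested. Both were called in 102. They went the same way in 71 (45 both higher, 26 both lower) and opposite ways in 31 (19 with the antisense RNA higher and the partner lower, 12 the reverse). In 105 pairs only the partner was called, in 35 only the antisense RNA and in 73 neither. The 71 are 22.5% of pairs and the 31 are 9.84%, where the background over all 5307 pairs of tested genes on opposite strands was 17.4% and 9.16%. The 5307 include the 315, and no gene in the others had to reach 1 CPM. Below that level 19.1% of tested genes were called, against 63% at or above it, so the sets are unlike. Taken over pairs with both genes called, 69.6% went the same way, against 65.2% of 1309 other pairs of that kind. Across the 315 pairs Pearson's r between the 2 log2 fold changes was 0.40 and Spearman's rho 0.35; across the 4992 other pairs r was 0.41 and rho 0.26. These points share libraries, and genes of a pair may share reads. The coefficients were 0.44 and 0.39 over the 172 overlapping pairs and 0.32 and 0.30 over the 137 divergent pairs.

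**Figure D3:**
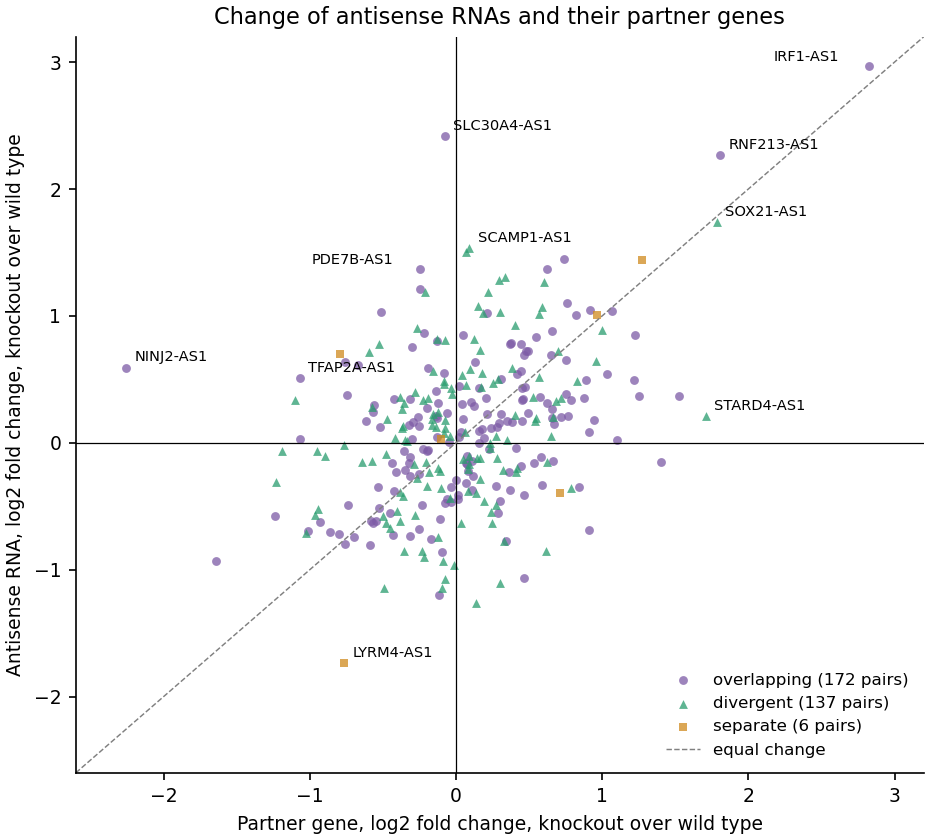
Each point is 1 of 315 pairs, with the log2 fold change of the partner gene, YTHDF1 knockout over wild type, on the horizontal axis and that of its antisense RNA on the vertical axis; circles are overlapping, triangles divergent and squares separate pairs, and the dashed line marks equal change. IRF1-AS1, RNF213-AS1 and SOX21-AS1 lie near the line at the upper right, SLC30A4-AS1 and SCAMP1-AS1 above a partner near 0, and NINJ2-AS1 in the quadrant of opposite sign at the upper left.

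Whether the antisense RNA and its partner changed by different amounts was tested directly. The difference passed an adjusted p of 0.05 in 105 of 315 pairs (33.3%), with the antisense RNA above its partner in 57 and below it in 48, against a background of 36.8% over the 5307 pairs. All 31 pairs that went opposite ways passed, and so did 15 of the 71 that went the same way. The 31 were taken by opposite calls in the same libraries, so their passing adds little. Divergent pairs passed in 53 of 137 cases, overlapping pairs in 49 of 172 and separate pairs in 3 of 6. Where the gene bodies of the pair do not overlap, 24 pairs were tested, 9 had both genes called, 5 of these the same way and 4 opposite ways, and the difference passed in 11.

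The largest difference was at NINJ2, which encodes an adhesion molecule. NINJ2-AS1 averaged 4.09 ± 0.349 CPM in the knockout and 2.73 ± 0.781 CPM in the wild type (SD, n = 3 each), a log2 fold change of 0.59 (adjusted p = 0.0151, edgeR) that was not called without knockout replicate 1 or wild-type replicate 1 (adjusted p = 0.0574 and 0.131). NINJ2 had 0.186, 0.0490 and 0 CPM in the knockout libraries, against 0.316, 0.297 and 0.449 CPM in the wild-type libraries, so the difference of 3.44 (SE 0.799, adjusted p = 0.000316, limma) rests on few reads of NINJ2. The call of NINJ2 itself was lost without knockout replicate 2 or 3 or wild-type replicate 3 (adjusted p = 0.0772, 0.107 and 0.0767). TFAP2A, the transcription factor AP-2 alpha, averaged 21.8 ± 1.1 CPM in the knockout and 45.7 ± 2.93 CPM in the wild type (SD, n = 3 each) and fell by 1.07 (SE 0.0712). TFAP2A-AS1 gave 0.51 with no call, and the difference was 1.62 (SE 0.351, adjusted p = 0.000114, limma). For both NINJ2-AS1 and TFAP2A-AS1, 100% of the exonic bases lie inside the body of a gene on the other strand. STARD4, a cholesterol transfer protein gene, averaged 233 ± 5.75 CPM in the knockout and 71.2 ± 5.64 CPM in the wild type (SD, n = 3 each) and rose by 1.71 (SE 0.0509), while STARD4-AS1, chosen after its values were seen, averaged 10.5 ± 0.503 CPM in the knockout and 9.11 ± 0.499 CPM in the wild type and gave 0.21 with no call. KIF25-AS1 and the kinesin gene KIF25 differed by -1.60 (adjusted p = 0.0428, limma), a call lost in each of the 6 fits that leave out a library (adjusted p from 0.0527 to 0.152).

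The names given here were chosen after their values were seen, and the pairs with opposite calls were about as frequent as in the background. Among the 31 pairs with opposite calls, antisense RNAs that were higher beside a lower partner include SH3BP5-AS1 (1.03 against -0.51), DIP2C-AS1 (1.21 against -0.25), ASH1L-AS1 (1.19 against -0.22, beside a histone methyltransferase gene), PAXIP1-AS2 (0.64 against -0.76), TSC22D1-AS1 (0.78 against -0.52) and HIF1A-AS3 (0.59 against -0.19). HIF1A, the oxygen-regulated transcription factor, averaged 733 ± 33.2 CPM in the knockout and 838 ± 14.2 CPM in the wild type (SD, n = 3 each), and its other antisense RNA, HIF1A-AS1, gave 0.35 with no call. Those that were lower beside a higher partner include MNX1-AS1 (-0.86 against 0.61, beside a homeobox gene), HAS2-AS1 (-0.77 against 0.34, beside a hyaluronan synthase gene) and PCGF3-AS1 (-0.55 against 0.29, beside a Polycomb subunit gene). Pairs that moved the same way include CFLAR-AS1 and the caspase inhibitor gene CFLAR (1.04 and 1.06), SLC7A11-AS1 and the cystine transporter gene SLC7A11 (0.85 and 1.23), FAM13A-AS1 and FAM13A (1.10 and 0.76), and FLG-AS1 and the filaggrin gene FLG (-0.93 and -1.64).

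The 23 antisense RNAs with no exonic base inside a gene on the other strand were the least open to counts of another gene's RNA. In this set, chosen after the data were seen, 7 were higher (FAM131B-AS2, FRMD3-AS1, RHPN1-AS1, SCAMP1-AS1, SOX21-AS1, TMEM92-AS1 and TRAM2-AS1), 4 were lower (BCAN-AS1, MNX1-AS1, OTUD6B-AS1 and TRIM52-AS1) and 12 were not called. MNX1-AS1, whose body lies 154 bases from that of MNX1, had 2.26, 1.49 and 1.57 CPM in the knockout libraries, against 3.03, 3.30 and 3.24 CPM in the wild-type libraries. MNX1 had 9.78, 10.2 and 8.47 CPM in the knockout libraries, against 6.48, 6.19 and 5.94 CPM in the wild-type libraries. Neither gene's groups overlap, and the difference of the 2 changes was -1.49 (SE 0.263, adjusted p = 3.24e-06, limma). OTUD6B-AS1 averaged 11.5 ± 1.31 CPM in the knockout and 17.7 ± 0.466 CPM in the wild type (SD, n = 3 each), while OTUD6B, a deubiquitinase gene, averaged 26.8 ± 0.825 CPM in the knockout and 26.1 ± 1.15 CPM in the wild type and was not called. In the other 312, 80 were higher and 52 lower. The share called was 47.8% in the 23 and 42.3% in the 312, near the background of 42.9% among genes in the range of level used above and below the 53.5% over all genes tested. Both sets also hold RNAs above that range of level.

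The antisense RNAs were set beside 2 other kinds of noncoding RNA chosen by name at the same minimum. Of 138 RNAs with names ending in -DT (divergent transcripts), 24 were higher and 29 lower (38.4% called), at a median log2 fold change of -0.06. Of 176 intergenic RNAs with LINC names, 53 were higher and 31 lower (47.7% called), with a median of 0.08. No test of these differences between classes was made. Within the antisense RNAs, divergent ones were higher in 31 and lower in 24 of 138 cases, overlapping ones in 51 and 30 of 187, and separate ones in 3 and 2 of 6.

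**Figure D4:**
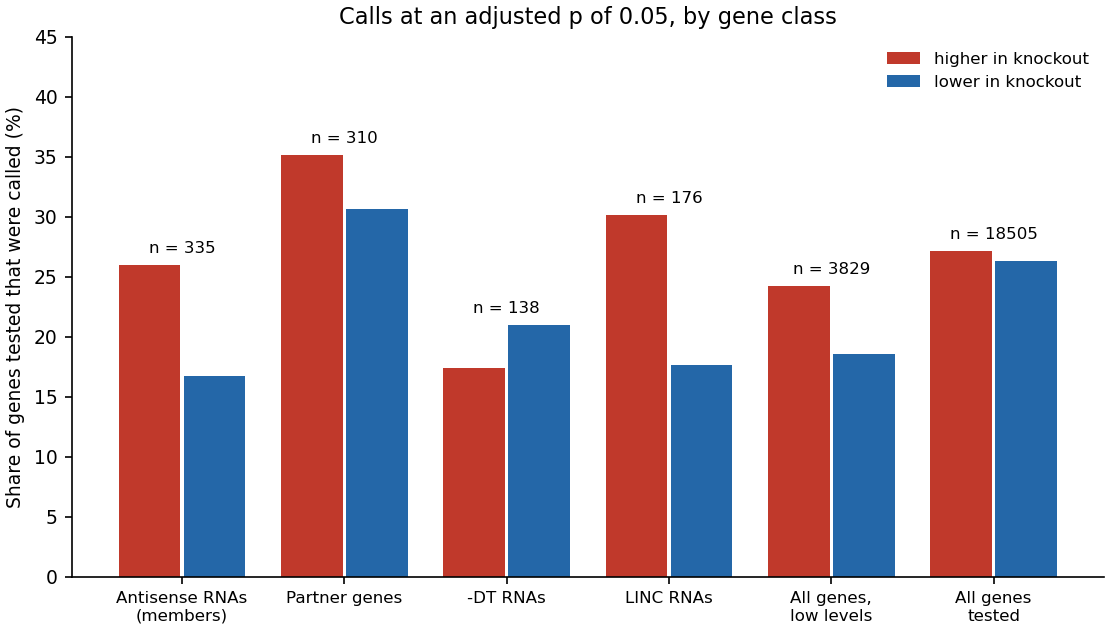
Bars give the share of genes tested, in percent, that were called higher (red) or lower (blue) in the YTHDF1 knockout at an adjusted p of 0.05, for the 335 antisense RNAs, their 310 tested partners, 138 -DT RNAs, 176 LINC RNAs, the 3829 genes with a mean from 1 CPM to the upper quartile of the antisense RNAs (all genes, low levels) and all 18505 genes. The antisense RNAs stand at 42.7% called in all and the genes of low level at 42.9%, a range that leaves out the 84 antisense RNAs of highest level.

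Genes that make, trim or edit such RNAs were read as lists, against a background of 53.5% called over all genes tested and 63% over those with a mean of at least 1 CPM. Of 31 genes of the nuclear exosome and its adaptors, which degrade many noncoding RNAs in the nucleus, 8 were higher and 13 lower (67.7% called), at a median log2 fold change of -0.09. The cap-binding protein gene NCBP1 fell by 0.66, the exosome helicase gene MTREX by 0.41 and ZC3H4, which restrains transcription of noncoding RNAs, by 0.42, whereas ZFC3H1, a scaffold of the adaptor for polyadenylated targets, rose by 0.42. Of 23 genes of the Integrator complex and of 3′ end cleavage, 4 were higher and 7 lower (47.8% called), with a median of -0.04. The first share lies near the background and the second below it. INTS8 fell by 0.64, CPSF3 by 0.43, INTS2 by 0.38 and CPSF2 by 0.32. The 4 that rose include INTS6 (0.33), INTS7 (0.27) and INTS1 (0.14). Of 23 tested genes that bind or process double-stranded RNA and RNA-DNA hybrids, 7 were higher and 12 lower (82.6% called), with a median of -0.18. Falls in that list include AGO1 (-0.53), an Argonaute protein gene of small RNA silencing, the RNA helicase gene DHX9 (-0.52), DICER1 (-0.50), whose enzyme cuts double-stranded RNA, and AQR (-0.44), a helicase gene linked to R-loops. Rises in that list include EIF2AK2 (2.06), the kinase PKR, and the RNA-editing enzyme genes ADAR (1.5) and ADARB1 (1.41). EIF2AK2 and ADAR also stand on the list of interferon-stimulated genes. All changes of named genes here passed edgeR's quasi-likelihood test at an adjusted p of 0.05, over all genes tested.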

How the data were processed

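Total RNA of A549 cells was made into libraries with an Illumina TruSeq stranded kit, per the labels' protocols. The authors deposited raw counts per Ensembl gene, whole numbers with 1 column per library. The submitters' processing notes name the genome build GRCh38, the counter featureCounts 2.0.1, the aligner STAR 2.7.0d, Trim Galore 0.6.6 and edgeR 3.32.1. Neither the annotation nor the strand setting nor the handling of multiply mapped reads is given in the sources used here. Reads over exons on both strands seem to have been dropped, and other reads may be assigned to the wrong strand, which bears on most antisense RNAs.

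Symbols came from a symbol table for 42000 identifiers and from GENCODE 29 for 814, and 17803 had none. GENCODE 29 also gave coordinates, exons and types. Promoter windows came from RefSeq. Levels are CPM with TMM factors, except that the minimum of 1 CPM uses counts over column totals. The deposited counts were tested with edgeR 4.0.16 in R 4.3.3: filterByExpr by genotype, TMM, a two-sided quasi-likelihood test on genotype alone, and Benjamini-Hochberg adjustment over 18505 genes at 0.05. The SE is the size of the fold change over the square root of F. Pair differences were tested with limma 3.58.1 on the log2 CPM of the antisense RNA minus that of the partner in each library, with voom weights, over 5307 pairs of tested genes on opposite strands that overlap or start within 2000 bases, and all pairs of the report. The scripts were tested on simulated data. As alternatives, each library was left out in turn, a replicate block was added, filters and thresholds were varied, scaling used RLE factors or library totals, and limma-voom and DESeq2 1.42.0 were run.

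Named genes are YTHDF1, up to 12 antisense RNAs per direction past the threshold with a log2 fold change of at least 1, the 8 most abundant, those with a partner among interferon-stimulated genes, the 6 largest pair differences, 3 on each side of the minimum, the partners of these, and up to 4 genes per list by adjusted p. Some genes that this rule takes are not reported here. Others were chosen after their values were seen. The members and the lists were chosen with earlier results of these data known. Libraries of a group differed by more than sampling noise (chi-square per degree of freedom 4.40 to 6.55), so all 6 were kept. Total counts per library were 27238817 to 40675628, and floors cover counting error only.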

Additional observations from a re-analysis of the deposited data

How the results depend on the processing

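Under DESeq2, limma-voom, RLE factors, library size only and both other filters, the antisense RNAs called stayed between 132 and 148 and the tested partners called between 196 and 208. Leaving out 1 library at a time gave 113 to 133 antisense RNAs, 187 to 202 partners and 87 to 98 pairs with a difference, and the fold change of YTHDF1 lay between -1.07 and -1.02. Scaling by library size alone gave 95 higher and 50 lower antisense RNAs, with the median of all genes at 0.03. An adjusted p of 0.01 left 36 lower. With a minimum of 0.5 or 2 CPM, 174 or 106 antisense RNAs were called, and unweighted differences gave 75 pairs. Further subsets were added after the data were seen: of the 23 antisense RNAs clear of genes on the other strand, 11 were called, 7 higher and 4 lower, and of the 24 pairs with bodies apart, 11 differed. The median log2 fold change of the antisense RNAs was 0.08 without knockout replicate 3 (0.0829) or wild-type replicate 2 (0.0779). The replicate numbers did not pair the libraries (correlations of same-numbered libraries -0.035, -0.035 and 0.017); with a replicate block 137 antisense RNAs were called, 88 higher and 49 lower, with 199 partners and 98 pairs. Of 65 named genes 12, and of 33 pairs 8, lost or gained a call under some setting. No gene value called in the main fit or under the setting turned direction. Turns of values called in neither were not counted. Low counts limit the antisense RNAs, with a median SE of 0.223.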

Other observations

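Genes of the same name pattern below the minimum of 1 CPM were not part of the comparison. Of 1493 such genes 313 passed edgeR's filter on low counts, and 38 of these were higher and 14 lower in the knockout (edgeR's quasi-likelihood test, adjusted p of 0.05, over all genes tested). That is 16.6% called, near the background of 19.1% over all tested genes with a mean below 1 CPM. A gene can pass that filter through the group where it is high, so these counts describe the genes that passed and not all 1493. The genes named here were chosen after their values were seen. USP30-AS1 had 20, 18 and 27 counts in the knockout libraries and 0 counts in each wild-type library. KIAA2012-AS1 averaged 1.13 ± 0.299 CPM in the knockout and 0.101 ± 0.0651 CPM in the wild type (SD, n = 3 each). CYLD-AS1, named after a deubiquitinase gene that restrains NF-kappaB signalling, averaged 0.865 ± 0.21 CPM in the knockout and 0.11 ± 0.102 CPM in the wild type. MYO16-AS1 averaged 1.53 ± 0.171 CPM in the knockout and 0.237 ± 0.0469 CPM in the wild type. GATA2-AS1 and GATA6-AS1, named after transcription factors of the GATA family, averaged 1.08 ± 0.217 and 0.608 ± 0.25 CPM in the knockout, against 0.271 ± 0.108 and 0.145 ± 0.0937 CPM in the wild type. HMGA2-AS1 went the other way, with 0.219 ± 0.123 CPM in the knockout and 1.01 ± 0.428 CPM in the wild type.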
